A study of Mus musculus with 16 samples.

Results

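The replication-dependent histone genes of the Hist1 cluster on mouse chromosome 13 were followed in ovary and testis with and without a gut microbiota. Members were the rows of the deposited count table whose symbol starts with Hist1h. The germ cell genes Hist1h1t, Hist1h2aa and Hist1h2ba were left out, and no symbol holding -ps was taken, which left 53 of the 56 such rows and of 38087 rows in all. They comprised 5 genes of the linker histone H1, 14 of H2A, 14 of H2B, 9 of H3 and 11 of H4. Annotation of 2 of the H2A members, Hist1h2aj and Hist1h2al, is as pseudogenes in GENCODE M21.

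RNA came from whole gonads of C57BL/6j mice aged 15 to 16 weeks, fed ad libitum and sampled at zeitgeber time 2 to 4, that is, hours after lights on. The groups were conventionally raised (CV) ovary with 4 libraries, germ-free (GF) ovary with 5, CV testis with 4 and GF testis with 3, ovaries being from females and testes from males. No transgene, drug or diet is named for any group, and tissue and sex were a single factor. The labels number the libraries of a group without saying that each came from its own animal, so each p-value reflects library-to-library spread, part of which may be technical. In bulk RNA of this kind, fewer cells of a type and less RNA per cell cannot be told apart.

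Replication-dependent histone genes supply the histones that package newly copied DNA. They are transcribed mainly in S phase, lack introns, and end in a short RNA stem-loop in place of a poly(A) tail; the stem-loop binding protein Slbp holds it during processing. A nucleosome wraps DNA around paired H2A, H2B, H3 and H4, and H1 binds the DNA between nucleosomes. Each family is made by many near-identical copies, so that one protein can come from several genes. In the testis the dividing spermatogonia and the spermatocytes entering meiosis copy DNA, while spermatids replace most histones by transition proteins and protamines. In the ovary most DNA copying is in granulosa cells of growing follicles.

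Libraries held 12912251 to 15907297 counts in the ovary and 25880591 to 28266867 in the testis. Members summed to 22402 to 38284 counts in an ovary library and 15649 to 19148 in a testis library. Spermatid markers (Prm1, Prm2, Tnp1, Tnp2 and Acrv1) summed to 15176 to 17018 CPM (counts per 1e+06 counts of the library) in the testis libraries and to no more than 1.52 CPM in any ovary. The oocyte markers Gdf9, Bmp15, Zp1, Zp2, Zp3 and Figla summed to 86.5 to 159.5 CPM in the ovaries and 13.9 to 17.0 CPM in the testes. CPM values throughout use library totals scaled by edgeR's TMM factors over all 16 libraries, and values after ± are SDs over the libraries of a group.

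How alike the copies are bears on what a count for any single copy can show, and the H4 genes make this plain. All 11 have a coding sequence of 312 bases. Over the 55 pairs the coding identity ran from 92.3% to 100%, with a median of 95.2%. Bases 61 to 110 of each coding sequence, counted from the A of the start codon in the GENCODE M21 transcripts, are printed with capitals where a copy departs from the most common base.
Hist1h4a: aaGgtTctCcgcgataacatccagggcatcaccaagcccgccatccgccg
Hist1h4b: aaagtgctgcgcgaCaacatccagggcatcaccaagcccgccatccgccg
Hist1h4c: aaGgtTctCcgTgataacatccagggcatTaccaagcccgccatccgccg
Hist1h4d: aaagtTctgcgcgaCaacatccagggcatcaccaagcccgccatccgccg
Hist1h4f: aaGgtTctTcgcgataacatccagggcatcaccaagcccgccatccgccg
Hist1h4h: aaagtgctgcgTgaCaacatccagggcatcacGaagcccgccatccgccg
Hist1h4i: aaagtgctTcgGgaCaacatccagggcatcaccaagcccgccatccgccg
Hist1h4j: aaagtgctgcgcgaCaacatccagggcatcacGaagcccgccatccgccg
Hist1h4k: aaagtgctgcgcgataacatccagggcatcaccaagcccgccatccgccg
Hist1h4m: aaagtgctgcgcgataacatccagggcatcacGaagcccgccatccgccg
Hist1h4n: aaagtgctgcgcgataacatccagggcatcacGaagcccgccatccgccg
The stretches of Hist1h4m and Hist1h4n were the same, and so were their whole coding sequences. Hist1h4i carried 3 capitals in this stretch and 11 over the coding sequence, and Hist1h4d, the most divergent copy, carried 19. A window of 100 bases, the length of a read here, found in no other transcript of the annotation made up 55.4% of the windows of Hist1h4i, 39.9% of those of Hist1h4j, 35.7% of those of Hist1h4k, 52.6% of those of Hist1h4c and 0% of those of Hist1h4m and Hist1h4n. The median share over members was 90.2% for H1, 14.2% for H2A, 39.5% for H2B, 43.6% for H3 and 35.7% for H4, and 8 of 51 members with a coding sequence had none. Only coding sequences were scanned for windows. Annotated exons can be longer, at 402 bases for Hist1h4m, and their other bases were not scored. How the authors' counting placed reads that match more than 1 copy is not given in the sources used here.

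Outside the coding sequence, Hist1h4m and Hist1h4n were also close. Their promoters, 250 bases before to 50 after the start in RefSeq (GRCm38.p6), were 99.0% identical, with 3 bases inserted, deleted or replaced. These count an offset of the windows, as that of Hist1h4n has an extra first a and lacks the last t of Hist1h4m. The remaining difference is g in Hist1h4m and a in Hist1h4n, shortly before the start codon. The promoter of Hist1h4i was 64.0% identical to that of Hist1h4m. They are shown because these 3 genes gave results in both tissues. Capitals mark TATAAA and GGTCC, the core of a box known from H4 promoters, on either strand. Motifs were taken at any position, whatever their distance from the start. The marked TATAAA begins at base 123 of 300 in Hist1h4m, 124 in Hist1h4n and 114 in Hist1h4i.
Hist1h4m, chr13:21811496-21811795, plus strand: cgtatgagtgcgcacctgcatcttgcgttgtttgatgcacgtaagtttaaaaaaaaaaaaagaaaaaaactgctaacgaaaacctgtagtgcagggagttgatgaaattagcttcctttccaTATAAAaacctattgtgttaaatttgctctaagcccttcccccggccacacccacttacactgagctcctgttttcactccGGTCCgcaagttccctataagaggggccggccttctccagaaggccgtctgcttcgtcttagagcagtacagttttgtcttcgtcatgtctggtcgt
Hist1h4n, chr13:21832148-21832447, minus strand: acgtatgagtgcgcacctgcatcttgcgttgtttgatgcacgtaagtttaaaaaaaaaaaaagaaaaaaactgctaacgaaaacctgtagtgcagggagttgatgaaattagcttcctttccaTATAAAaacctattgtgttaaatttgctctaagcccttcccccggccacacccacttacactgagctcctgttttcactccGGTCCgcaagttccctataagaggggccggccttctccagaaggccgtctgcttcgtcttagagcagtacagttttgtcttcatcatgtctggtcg
Hist1h4i, chr13:22041313-22041612, minus strand: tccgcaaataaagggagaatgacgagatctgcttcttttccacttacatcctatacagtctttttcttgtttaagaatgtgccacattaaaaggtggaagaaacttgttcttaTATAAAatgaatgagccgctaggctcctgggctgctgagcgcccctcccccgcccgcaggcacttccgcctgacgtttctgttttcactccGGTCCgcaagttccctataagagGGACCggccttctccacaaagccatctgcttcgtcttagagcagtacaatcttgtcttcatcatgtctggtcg
GGTCC was in 10 of 11 H4 promoters and in 45.5% of the promoters of all genes. TATAAA was in 8 of 11 H4 promoters, against 13.6% of all, and CCAAT in 3 of 11 H4 promoters but in every H1, H2A, H2B and H3 promoter given, against 37.4% of all. ATTTGCAT, the octamer known from H2B promoters, was in 5 of 13 H2B and 4 of 12 H2A promoters, and in 1.7% of all. Each motif was searched on both strands, and promoters were given for 48 of the 53 members.

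The stem-loop, searched after the stop codon, was present in 36 of the 39 members with at least 50 annotated bases there, starting 24 to 46 bases after the stop. Of all 55450 genes in the annotation, 0.106% held such a match anywhere in a transcript. The form shared by 20 members, that of Hist1h4m and Hist1h4n, that of Hist1h4j and that of Hist1h4i are given whole, since the next results turn on these copies.
Hist1h2ao and 19 others: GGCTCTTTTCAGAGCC
Hist1h4m, Hist1h4n and 4 others: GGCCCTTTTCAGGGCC
Hist1h4j and Hist1h4b: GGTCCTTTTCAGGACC
Hist1h4i: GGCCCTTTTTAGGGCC
Stem-loops of Hist1h4m and Hist1h4n, like their coding sequences, were the same.

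GF and CV gonads differed in single histone genes far more than in histone families. In the ovary 7 of the 48 members tested changed at an adjusted p under 0.05 (called, in what follows), 4 higher and 3 lower in GF. Of all 18095 genes tested 0.177% were called, 0.111% higher and 0.0663% lower. In the testis 24 of 47 changed, 14 higher and 10 lower, against 8.08% of 20269 genes, 3.67% higher and 4.41% lower. Of the 7 called in the ovary, 6 (85.7%) were called in the testis and moved the same way; these were 25% of the testis calls. All 24 testis calls had the same sign in the ovary, and 35 of the 46 members tested in both did. How often other genes agreed between the tissues in call or sign was not counted. This agreement therefore cannot be read as particular to the members. The median absolute log2 change of the members reached 0.32 for ovaries and 0.39 for testes, against 0.0964 and 0.0901 over all genes. Signed medians were 0.19 and 0.033, against 0.0060 and 0.0035 over all genes. In the ovary every GF library was above every CV library for 8 of the 48 members tested, and below for 8. Over all genes these shares were 1.37% and 1.31%, by raw library totals. For testes the counts were 13 and 11 of 47, against 9.09% and 7.95% over all genes. With the replicate number as a block, the ovary fit called 13 members, 7 higher and 6 lower, among 91 genes in all. It added Hist1h2bl, Hist1h2bj, Hist1h4a, Hist1h4j, Hist1h2ae and Hist1h4c, all of which were called in the same direction in the testis. No label states that same-numbered libraries are paired. A fit of all 16 libraries together called 13 members in the ovary and 11 in the testis.

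**Figure D1:**
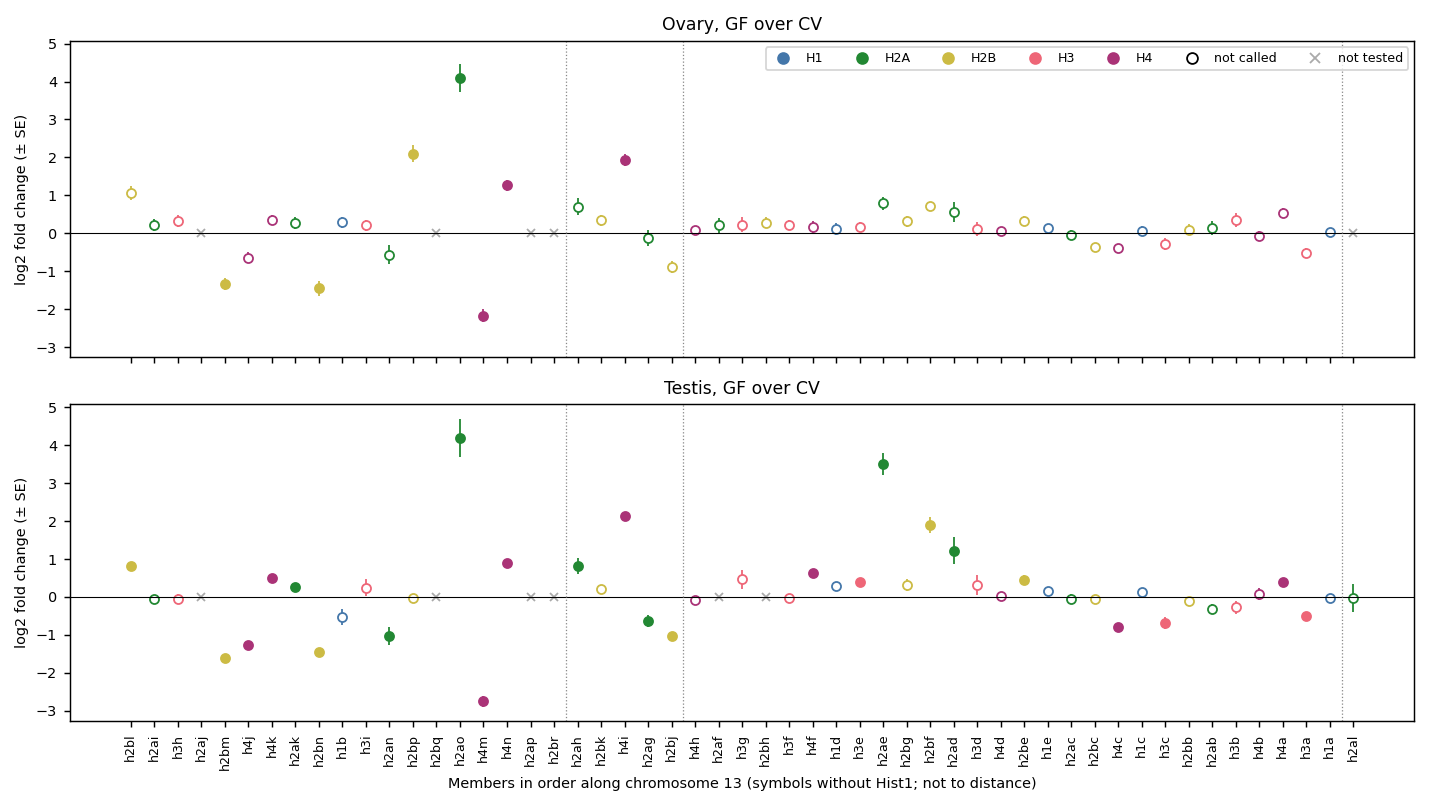
Log2 fold change of GF over CV (points, with SE as bars) for each member in its order along chromosome 13, in the ovary (upper) and testis (lower). Filled points were called at an adjusted p under 0.05, crosses were not tested, colours are families and dotted lines separate the stretches of the cluster. Hist1h2ao, Hist1h4m, Hist1h4n and Hist1h4i stand at like heights in both panels, whereas Hist1h2bp is high in the ovary alone and Hist1h2ae is higher in the testis panel than in the ovary panel.

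H4 genes showed both directions. Hist1h4i rose in GF mice in both tissues. In the ovary it stood at 7.1, 4.29, 6.35 and 7.07 CPM in the CV libraries and at 28.4, 20.8, 20.1, 26.2 and 22.4 CPM in the GF libraries. In the testis the values were 8.001, 8.27, 8.63 and 7.995 CPM in CV, against 35.3, 35.6 and 36.2 in GF. Every GF library was above every CV library, and the testis groups in particular were tight. The log2 fold change was 1.93 (SE 0.165, adjusted p = 0.000556) for ovaries and 2.14 (SE 0.0711, adjusted p = 9.84e-24) in the testis. Hist1h4i lies at chr13:22040636-22041362 (GRCm38), and its closest relatives were Hist1h4m and Hist1h4n, each at 96.8% coding identity.

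Hist1h4m went the other way. It stood at 10.002, 8.89, 8.21 and 10.2 CPM for CV ovaries and 2.45, 1.996, 1.35, 2.14 and 2.33 CPM for GF ovaries. In the testis it measured 10.7, 12.8, 12.5 and 11.3 CPM for CV and 1.74, 1.52 and 1.93 CPM for GF libraries. No GF library came near a CV library in either tissue. The changes were -2.18 (SE 0.17, adjusted p = 0.000391) in the ovary and -2.75 (SE 0.14, adjusted p = 5.21e-18) in the testis. Its twin Hist1h4n rose, from 9.02, 7.3, 8.45 and 9.82 CPM in CV to 27.3, 17.5, 17.98, 22.1 and 18.7 CPM in GF ovaries. In testes it went from 11.4, 11.7, 11.7 and 10.7 CPM to 19.5, 21.1 and 21.9 CPM. The twin's ranges did not overlap either, with changes of 1.26 (SE 0.149, adjusted p = 0.00391) and 0.89 (SE 0.0779, adjusted p = 4.21e-11). Hist1h4m lies at chr13:21811746-21812147 and Hist1h4n at chr13:21831767-21832196.

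Summing the twins removed most of the difference. Hist1h4m plus Hist1h4n averaged 18.0 ± 1.83 CPM (SD, n = 4) in CV and 22.8 ± 4.39 CPM (n = 5) in GF ovaries, with overlapping ranges of 16.2 to 19.99 and 19.3 to 29.8 CPM. In the testis the sum was 23.2 ± 1.37 CPM (n = 4) in CV and 22.6 ± 1.30 CPM (n = 3) in GF, again overlapping. Hist1h4m supplied 679 of 1307 counts of the sum in CV ovaries and 191 of 2118 in GF ovaries, and 926 of 1815 and 102 of 1332 in the testis. The division of counts between the twins differed between CV and GF by more than their total did.

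A second pair, Hist1h4j and Hist1h4k, with coding sequences 98.4% identical and promoters 87.0% identical, repeated this in the testis. Hist1h4j read 32.9, 36.4, 37.9 and 33.7 CPM in CV, against 14.7, 14.4 and 14.04 in GF testes. Hist1h4k read 43.2, 43.3, 41.03 and 45.1 CPM in the CV group and 56.1, 64.9 and 59.5 CPM in GF testes. The former fell and the latter rose, by -1.27 (SE 0.0693, adjusted p = 4.68e-17) and 0.50 (SE 0.0526, adjusted p = 5.5e-09), each without overlap. Their sum was 78.4 ± 1.60 CPM for CV and 74.6 ± 4.33 CPM for GF, and its ranges overlapped. In the ovary the estimates had the same signs, -0.64 (SE 0.14, adjusted p = 0.229) and 0.35 (SE 0.137, adjusted p = 0.706), and neither was called; the blocked fit, DESeq2 and the joint fit called Hist1h4j.

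**Figure D2:**
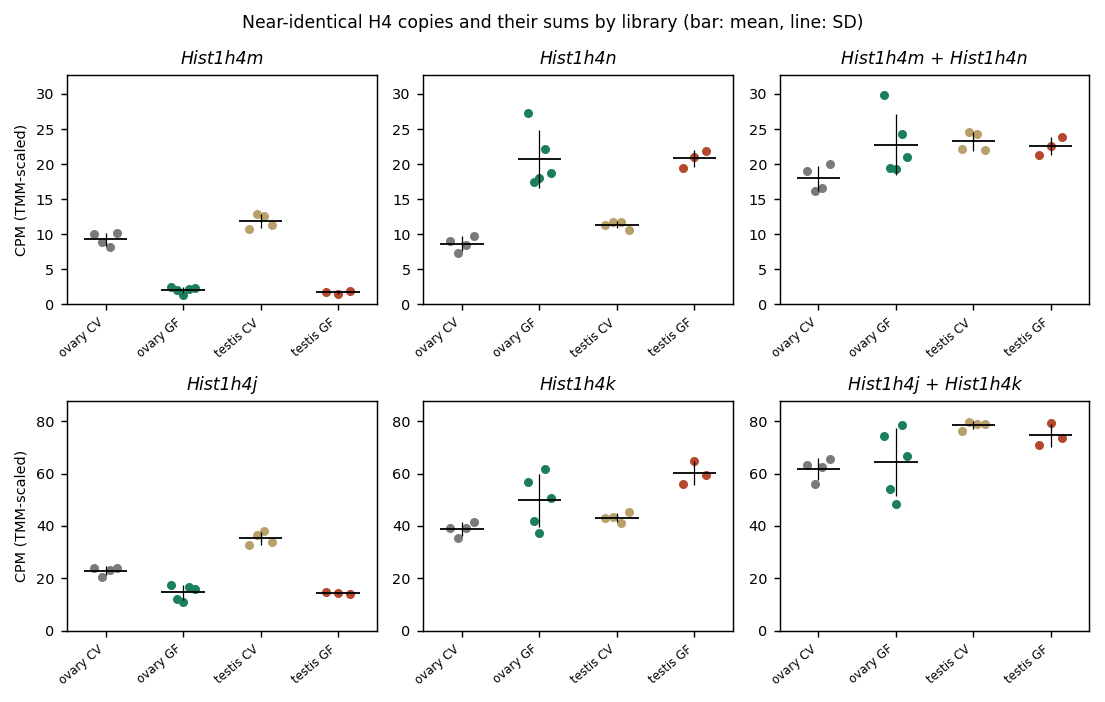
CPM by library of Hist1h4m, Hist1h4n and their sum (top) and of Hist1h4j, Hist1h4k and their sum (bottom) in the 4 groups; points are libraries, bars means and lines SD. In the testis the sums stay at 22.0 to 24.5 CPM in CV, against 21.2 to 23.9 in GF for the upper pair, while the single copies separate.

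Hist1h4c, the H4 gene with the highest level in the testis, fell there. It measured 149, 156, 158 and 159 CPM in the CV group and 87.8, 89.6 and 88.7 CPM in GF testes. The gap was many times the spread of either group, and the change was -0.79 (SE 0.0365, adjusted p = 3.94e-19). In the ovary Hist1h4c had 64.8, 61.02, 59.9 and 68.4 CPM for CV and 55.5, 43.97, 44.4, 51.5 and 47.7 CPM for GF libraries, ranges that did not overlap, and a change of -0.39 (SE 0.0786, adjusted p = 0.168) that was not called, but was with the block, with DESeq2 and in the joint fit of 16 libraries. Smaller rises were called in the testis for Hist1h4a, 30.5 to 34.6 CPM in CV, against 39.8 to 42.9 in GF (log2 0.39 (SE 0.0588, adjusted p = 1.01e-05)), and for Hist1h4f, 7.21 to 9.16 and 11.3 to 14.9 CPM (log2 0.62 (SE 0.104, adjusted p = 5.98e-05)). Hist1h4h and Hist1h4d, the copies with the highest levels in the ovary, were not called in either tissue. Hist1h4d gave 113 ± 7.2 CPM in the CV group and 117 ± 17.9 CPM in GF ovaries, and Hist1h4h 98.3 ± 4.93 and 105 ± 14.3 CPM. Hist1h4b, the remaining copy, was at 14.6 to 18.4 CPM for CV and 12.3 to 18.6 CPM for GF ovaries and at 3.02 to 3.51 and 3.05 to 3.95 CPM in testes. Hist1h4d is the copy with every 100-base window unique (100%), and its log2 change was 0.05 for ovaries and 0.03 in the testis. Over members of all families, the median unique share in the testis was 37.85% for those called higher, 48.05% for those called lower and 34.1% for those not called. In the ovary these medians were 17.2%, 47.9% and 38.1%.

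**Figure D3:**
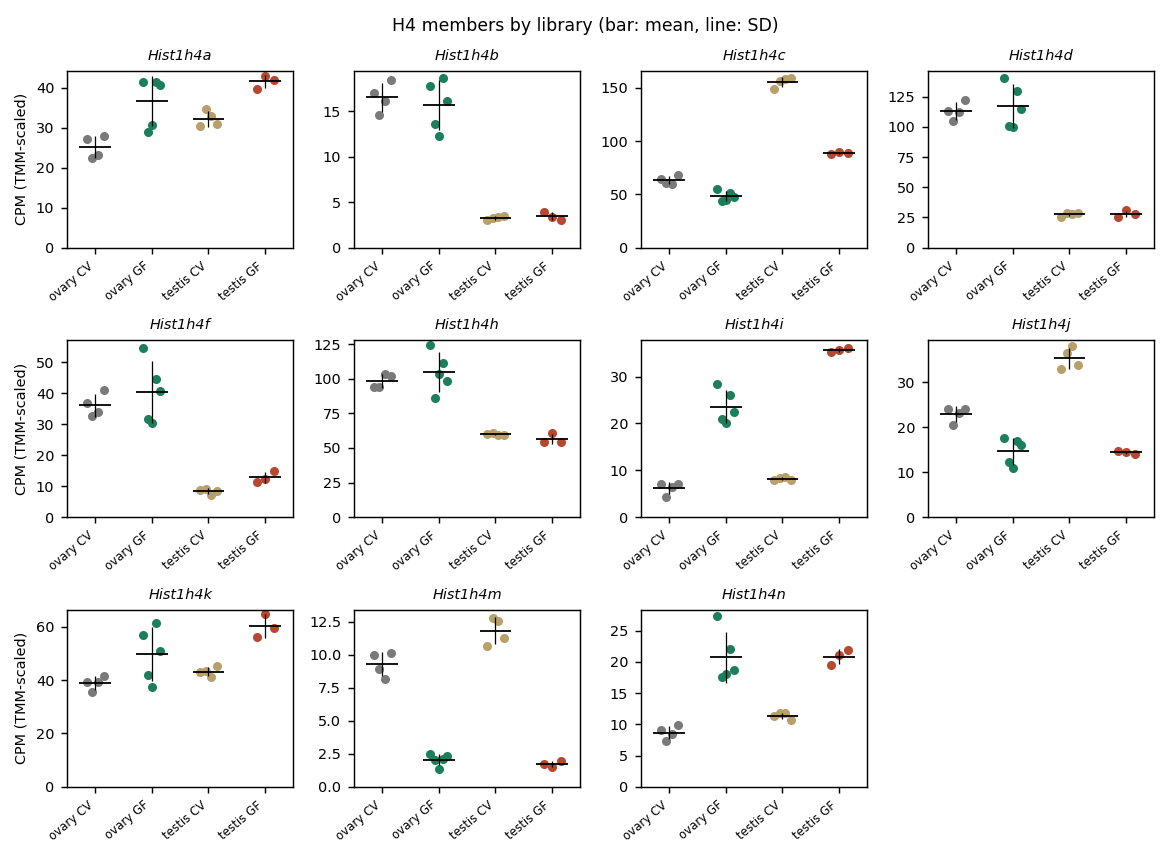
CPM of the 11 H4 members in each library of the 4 groups, each on its own axis from 0, with bars at the mean and lines of 1 SD. Hist1h4i and Hist1h4n are higher and Hist1h4m, Hist1h4j and Hist1h4c lower in GF than in CV libraries of both tissues, without overlap.

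H2B genes, whose product pairs with H2A and whose coding sequences all have 381 bases, also split. In the ovary 1 rose and 2 fell of 12 tested, and in the testis 3 rose and 3 fell of 11. Hist1h2bm fell in both tissues. It read 17.3, 17.5, 17.7 and 20.9 CPM in CV, against 7.9, 5.69, 5.47, 9.35 and 7.69 in GF ovaries. In testes it read 29.1, 34.1, 30.1 and 29.6 CPM in the CV group and 9.81, 10.9 and 9.31 CPM in GF. Groups were far apart, with log2 changes of -1.35 (SE 0.156, adjusted p = 0.00355) and -1.60 (SE 0.0787, adjusted p = 3.05e-18), and 90.1% of the 100-base windows of this gene were unique, the highest share among H2B members. It was matched to the annotation by symbol only.

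Hist1h2bn fell as well. Its values were 37.9, 32.4, 42.6 and 43.8 CPM for CV and 18.4, 10.9, 9.36, 17.8 and 15.3 CPM for GF ovaries. In the testis they were 9.43, 11.9, 10.7 and 12.3 CPM in CV, against 4.17, 3.83 and 3.97 in GF. Neither tissue showed overlap. The changes were -1.45 (SE 0.199, adjusted p = 0.0211) and -1.46 (SE 0.121, adjusted p = 8.75e-12). The ovary call was close to the threshold: its adjusted p was 0.0741 without CV 1, 0.106 without CV 3, 0.0993 without CV 4, 0.05 without GF 2, 0.0831 without GF 5 and 0.0766 with no filter on low counts. The log2 change stayed at -1.47 to -1.37 in these settings, and the adjusted p ranged from 9.04e-10 to 0.106 across all settings.

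Hist1h2bp rose in the ovary alone. It stood at 2.07, 1.53, 2.16 and 1.68 CPM in the CV group and 10.7, 5.4, 6.93, 8.66 and 8.25 CPM in GF ovaries, a change of 2.10 (SE 0.215, adjusted p = 0.00205) without overlap. In the testis, where it had by far the highest level of any H2B member, it was at 57.6, 57.6, 57.2 and 54.4 CPM for CV and 52.9, 56.7 and 55.1 CPM for GF libraries. There the ranges overlapped and the change was -0.03 (SE 0.0476, adjusted p = 0.821). The testis effect less the ovary effect was -2.15 (SE 0.218, adjusted p = 0.000162), called among 0.132% of 21977 genes (0.0728% higher and 0.0592% lower).

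Further H2B changes in the testis were those of Hist1h2bj, from 10.7, 11.04, 12.5 and 10.8 CPM in CV to 5.01, 6.09 and 5.19 CPM in GF (log2 -1.03 (SE 0.111, adjusted p = 7.95e-09)), and of Hist1h2bf, from 0.848, 1.73, 0.813 and 1.71 to 4.11, 4.57 and 5.49 CPM (log2 1.90 (SE 0.212, adjusted p = 4.91e-08)). Hist1h2bl rose from 5.25, 4.5, 5.18 and 5.9 to 8.8, 9.34 and 9.1 CPM (log2 0.82 (SE 0.115, adjusted p = 2.51e-06)). None of these overlapped between groups. In the ovary the same genes did not overlap either: Hist1h2bj was at 9.28 to 12.8 CPM in CV, against 4.51 to 7.56 in GF, Hist1h2bf at 6.58 to 7.69 and 9.64 to 13.3 CPM, and Hist1h2bl at 9.58 to 15.3 and 19.8 to 30.4 CPM. None was called there, with adjusted p of 0.0998, 0.0945 and 0.0648; the blocked fit, DESeq2 and the joint fit called Hist1h2bj and Hist1h2bl, and DESeq2 called Hist1h2bf. Hist1h2be, the H2B member with the highest level in the ovary, gave log2 0.46 (SE 0.133, adjusted p = 0.0427) in the testis. That call was lost without testis CV 1 (0.0967), CV 3 (0.13), CV 4 (0.121), GF 2 (0.21) or GF 3 (0.188), while the log2 change stayed at 0.33 to 0.47. Hist1h2bq and Hist1h2br, identical in coding sequence, had too few counts to be tested. Together they had 7 counts in CV and 61 in GF ovaries, and 9 in CV and 46 in GF testes. Their summed CPM did not overlap between groups in either tissue, being 6.52-fold higher in GF ovaries and 6.76-fold higher in GF testes.

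H2A genes gave the largest fold changes, all at low counts. Hist1h2ao rose in both tissues. Its counts were 7 over the CV and 164 over the GF ovaries, and 6 over the CV and 88 over the GF testes. As CPM these were 0.0518, 0.0529, 0.18 and 0.112 in CV and 1.96, 1.53, 1.3, 1.85 and 2.18 in GF ovaries. Testes had 0, 0.262, 0.0508 and 0 CPM in the CV group and 1.48, 1.28 and 1.73 CPM in GF. Every GF library was above every CV library, most of which were near 0, and the changes were 4.10 (SE 0.363, adjusted p = 0.000674) and 4.19 (SE 0.507, adjusted p = 1.86e-07). Hist1h2ap, its identical copy, was not tested; it had 8 and 6 counts in CV and GF ovaries and 3 and 1 in testes. The sum of both was 8.81-fold higher in GF ovaries and 12.8-fold higher in GF testes, without overlap, whereas the summed ranges of Hist1h4m and Hist1h4n overlapped.

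Hist1h2ae, which lies at chr13:23570517-23571220, rose in the testis by more than in the ovary. In testes it was at 0.371, 0.314, 0.102 and 0.488 CPM for CV and 2.9, 3.78 and 4.22 CPM for GF libraries, 25 and 215 counts in all, a change of 3.50 (SE 0.285, adjusted p = 5.69e-12). In the ovary it was at 6.79, 5.19, 5.09 and 6.4 CPM in CV, against 13.2, 8.69, 7.55, 10.4 and 10.8 in GF. Groups did not overlap in either tissue, and the ovary change of 0.79 (SE 0.172, adjusted p = 0.232) was not called, but was with the block and with DESeq2. On the log2 scale the testis effect exceeded that in the ovary by 2.69 (SE 0.369, adjusted p = 0.0034). DESeq2 called 4 members for this difference between tissues, these being Hist1h2ae, Hist1h2bp, Hist1h2bf and Hist1h4c.

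The other H2A calls were all in the testis. Hist1h2an fell from 1.83 to 2.54 to 0.949 to 1.18 CPM (log2 -1.03 (SE 0.238, adjusted p = 0.00307)), and Hist1h2ag from 3.998 to 5.46 to 2.37 to 3.59 CPM (log2 -0.64 (SE 0.162, adjusted p = 0.00776)). Rises were called for Hist1h2ad, 0.355 to 0.576 to 0.633 to 1.58 CPM (1.22 (SE 0.357, adjusted p = 0.0257)), Hist1h2ah, 1.12 to 2.23 to 2.36 to 3.27 CPM (0.81 (SE 0.214, adjusted p = 0.0113)), and Hist1h2ak, 11.3 to 13.4 to 14.2 to 15.4 CPM (0.27 (SE 0.0853, adjusted p = 0.0434)). Some of these calls were lost when a library was left out, while the directions stayed. Without GF 1, Hist1h2ag had a log2 change of -0.49 (adjusted p = 0.0899) and Hist1h2ah one of 0.69 (adjusted p = 0.0945). That of Hist1h2ad was lost without CV 3 (0.0747), GF 2 (0.0716) or GF 3 (0.324), at log2 changes of 0.82 to 1.27, and that of Hist1h2ak without CV 1 (0.132), CV 3 (0.146), GF 1 (0.0809), GF 2 (0.225) or GF 3 (0.0851), at 0.22 to 0.29. Hist1h2ag and Hist1h2ad, which are 99.5% identical in coding sequence and had no unique window, were called in opposite directions. Hist1h2ab, Hist1h2ac, Hist1h2af and Hist1h2ai were called in neither tissue, where tested; Hist1h2ai averaged 10.1 ± 0.828 CPM in the CV group and 9.67 ± 0.556 CPM in GF testes. The pseudogenes Hist1h2aj and Hist1h2al stayed at or under 0.47 CPM and 1.27 CPM in every library.

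**Figure D4:**
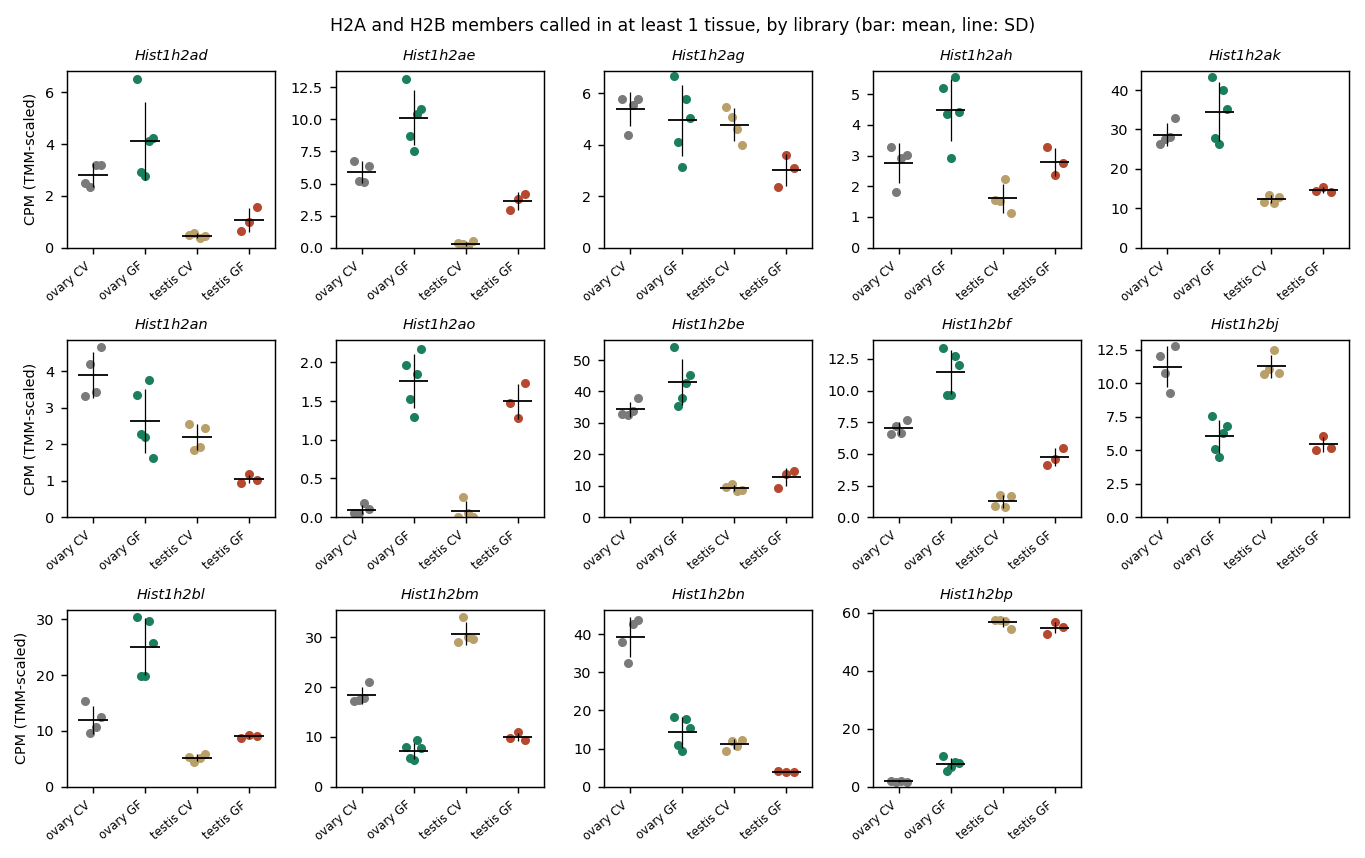
CPM by library of the H2A and H2B members called in the ovary, the testis or both, each on its own axis from 0; points are libraries, bars means and lines SD. Hist1h2bm and Hist1h2bn are lower and Hist1h2ao, Hist1h2ae, Hist1h2bf and Hist1h2bl higher in all GF than in all CV libraries of each tissue; Hist1h2bp separates in the ovary only.

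Fewer H3 and H1 genes were called. No H3 member was called in the ovary by edgeR, while 1 of 9 had an unadjusted p under 0.05 and DESeq2 called 1. Of all 18095 genes tested there, 1172 had an unadjusted edgeR p under 0.05 and DESeq2 called 95. In the testis Hist1h3a fell from 12.1, 13.97, 14.7 and 13.5 CPM in CV to 8.96, 10.3 and 8.95 CPM in GF (log2 -0.51 (SE 0.0944, adjusted p = 0.000211)), without overlap, and it did not overlap in the ovary either, at 14.8 to 16.7 CPM for CV and 8.57 to 12.96 CPM for GF. Hist1h3c fell from 4.11 to 4.97 to 2.16 to 3.22 CPM (log2 -0.68 (SE 0.162, adjusted p = 0.00451); without GF 2, log2 -0.52 and adjusted p = 0.0823). Hist1h3e rose from 5.31 to 6.25 to 7.03 to 8.49 CPM (log2 0.39 (SE 0.119, adjusted p = 0.0341)), and this call was lost with DESeq2 (0.0952) and without CV 2 (0.0856), CV 4 (0.0807), GF 2 (0.0566) or GF 3 (0.256), at log2 changes of 0.29 to 0.43. The other 6 H3 members had log2 changes of -0.27 to 0.47 in the testis and were not called.

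None of the 5 linker histone genes was called by edgeR in either tissue. An unadjusted p under 0.05 was found for 4 in the testis and 0 in the ovary, and DESeq2 called 0 in each. Of all genes, 3939 of 20269 in the testis and 1172 of 18095 in the ovary had such a p. DESeq2 called 1247 and 95 genes in all. As a family the H1 genes had the highest median share of unique coding windows, 90.2%, with single genes at 86.3% to 100%. Hist1h1c, the H1 gene with the highest level in the ovary, gave 161, 137, 169 and 189 CPM in CV, against 208, 141, 149.7, 187 and 177 in GF ovaries, ranges that overlapped (log2 0.07 (SE 0.126, adjusted p = 0.949)). Hist1h1a, highest in the testis, gave 174, 182, 168 and 173 CPM in the CV group and 154, 187 and 163 CPM in GF testes, likewise overlapping (log2 -0.04 (SE 0.0653, adjusted p = 0.84)). Hist1h1b was lower in all GF testes, 1.42 to 1.77 against 2.09 to 2.54 CPM, at an adjusted p of 0.137. Of all genes tested in the testis, 7.95% were lower in every GF library by raw totals.

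Family sums showed how far these opposite changes cancelled. Over all 53 members the CV ovaries summed to 1461, 1308, 1489 and 1619 CPM and the GF ovaries to 1879, 1315, 1298, 1778 and 1629 CPM. GF ovaries 1, 4 and 5 were the highest and GF 3 was the lowest of the 9. The CV testes summed to 914, 963, 929.9 and 934 CPM and the GF testes to 825, 935 and 874 CPM. In the ovary the ranges of CV and GF overlapped for each family, with log2 ratios of the means of 0.11 for H1, 0.24 for H2A, -0.0057 for H2B, 0.13 for H3 and 0.11 for H4. In the testis H1 and H2A overlapped, with ratios of 0.0072 and 0.10. Testis sums of the other families were lower in every GF library. H2B went from 175 ± 7.01 to 150.3 ± 8.95 CPM (log2 ratio -0.22), H3 from 51.3 ± 1.6 to 46.7 ± 1.77 CPM (-0.14) and H4 from 397 ± 9.46 to 364 ± 13.95 CPM (-0.13). These sums were given no test.

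The H4 sum in the testis held larger shifts in each direction. Its 5 risers went from 103 ± 2.59 to 171 ± 7.99 CPM and its 3 fallers from 203 ± 7.07 to 105 ± 0.613 CPM, where the calls themselves chose the members. Over all families the 14 testis risers went from 140 to 229 CPM and the 10 fallers from 281 to 141 CPM. The 4 risers of the ovary went from 16.8 to 54.1 CPM and its 3 fallers from 66.9 to 23.6 CPM.

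**Figure D5:**
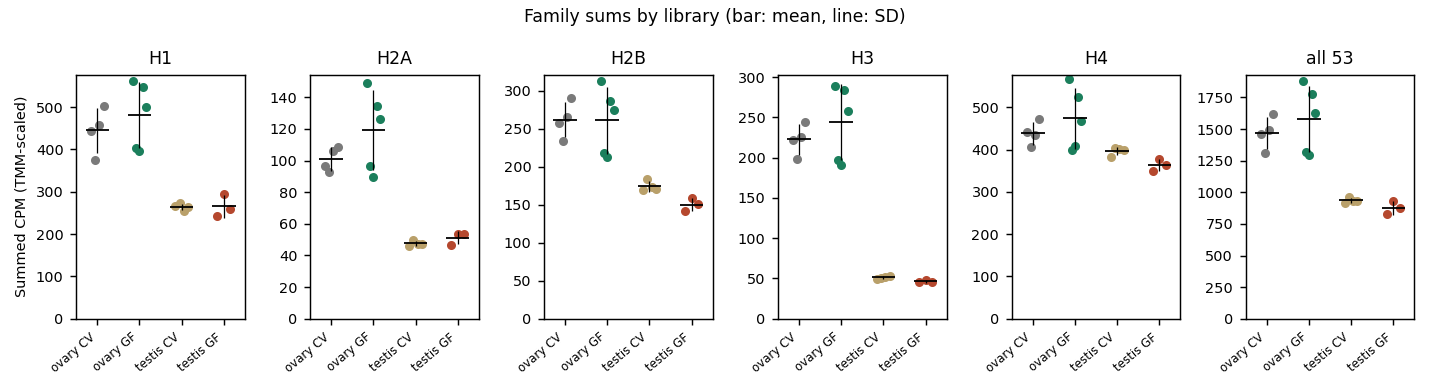
Summed CPM of the H1, H2A, H2B, H3 and H4 members and of all 53, by library in the 4 groups, with axes from 0, bars at the mean and lines of 1 SD. CV and GF overlap in every ovary panel, the H2B, H3 and H4 sums of GF testes lie below those of CV testes, and ovary sums are above testis sums by the most for H3.

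Calls were counted by position along the cluster. The members lay in 3 stretches of chromosome 13, split where neighbouring members were over 100 kb apart, with the pseudogene Hist1h2al on its own further along. The first, chr13:21715763-21837530, held 19 members, of which 6 of 15 tested were called in the ovary and 10 of 15 in the testis. The second, chr13:22035164-22043676, held 5, with 1 and 4 called. The third, chr13:23531050-23764406, held 28. In it edgeR called 0 of 28 in the ovary, with 8 at an unadjusted p under 0.05 and 6 called by DESeq2, and 10 of 26 in the testis. Of all genes tested, edgeR called 0.177% in the ovary and 8.08% in the testis. Among the 18095 genes tested in the ovary, 1172 had an unadjusted edgeR p under 0.05 and DESeq2 called 95. The median absolute log2 change in the ovary was 0.64, 0.70 and 0.21 in these 3 stretches, and in the testis 0.82, 0.81 and 0.32.

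Neighbouring genes were compared as pairs. The cluster held 11 pairs of an H2A and an H2B gene that lie head to head, 175 to 301 bases apart. In the testis both partners were called in 3 pairs and exactly 1 in 6, the partner being untested in 2 of those 6. Hist1h2ag and Hist1h2bj fell together and Hist1h2bf and Hist1h2ad rose together, whereas Hist1h2ak rose by log2 0.27 and its partner Hist1h2bn, 295 bases away, fell by 1.46. In the ovary exactly 1 partner was called in 4 pairs, with the partner untested in 2 of them (Hist1h2aj and Hist1h2bq). Both were called in 0, by the same edgeR test. The shares of all single genes called were 0.177% in the ovary and 8.08% in the testis. Of the members tested, 7 of 48 in the ovary and 24 of 47 in the testis were called.

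The closest copies were compared next. For 21 of the 24 members called in the testis, at least 1 closest member by coding sequence was also tested, and all equally close members were taken. Closest members were called in the opposite direction for 9 of the 21, in the same direction for 5, in both directions for 2 (Hist1h4i and Hist1h2an) and not at all for 5. In the ovary these counts were 2, 0, 1 and 2 of 5. Among all genes tested, 8.08% were called in the testis and 0.177% in the ovary. The closest copies were all taken from the members, of which 24 of 47 were called in the testis and 7 of 48 in the ovary. A member with several equally close copies had more chances of a called one. A pair of mutual closest copies, such as Hist1h4m and Hist1h4n, enters these counts once for each copy.

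Most members differed between the tissues, as did most genes. In CV mice 43 of 49 members tested differed between testis and ovary, 10 higher and 33 lower in testis, against 90.3% of all 21977 genes, of which 46.3% were higher and 44% lower. In GF mice 42 differed, 7 higher and 35 lower, against 89.8%. TMM scaling raised testis levels relative to the ovary by 0.80 on the log2 scale compared with raw totals; with raw totals 4 were higher and 42 lower in CV testis, and 3 and 44 in GF. H3 was lower in CV testis by the most, 51.3 ± 1.6 against 223 ± 19.03 CPM (log2 ratio -2.12), and H4 by the least, 397 ± 9.46 against 439 ± 27.3 CPM (-0.14; -0.95 with raw totals and -0.0055 with DESeq2 size factors). H1, H2A and H2B lay between, at -0.75, -1.08 and -0.59.

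A few members stood high in testis. Hist1h2bp was at 56.7 ± 1.57 CPM in CV testes and 1.86 ± 0.3 CPM in CV ovaries (log2 4.93 (SE 0.167, adjusted p = 3.79e-15)), and it made up 34.1% of the H2B sum in the testis. Hist1h1a, the gene of the H1.1 subtype, was at 174 ± 5.89 and 42.6 ± 3.79 CPM (log2 2.03 (SE 0.107, adjusted p = 3.83e-12)) and made up 64.7% of the testis H1 sum. Hist1h4c made up 33.2% of the H4 sum there, at log2 1.29 (SE 0.0669, adjusted p = 1.87e-12). At the other end Hist1h2bh was at 0.204 ± 0.111 CPM in CV testes and 17.02 ± 2.81 CPM in CV ovaries (log2 -6.33 (SE 0.286, adjusted p = 2.48e-13)), and Hist1h1b at 2.29 ± 0.214 and 47.9 ± 5.35 CPM (log2 -4.38 (SE 0.156, adjusted p = 8e-15)). In the ovary the largest shares of a family were those of Hist1h1c (36.2% of H1), Hist1h2ak (28.8% of H2A), Hist1h2be (15.0% of H2B), Hist1h3e (23.2% of H3) and Hist1h4d (25.2% of H4). In the testis Hist1h2ak led H2A with 27.0% and Hist1h3f led H3 with 26.6%. Hist1h2al, at 0.868 ± 0.389 CPM in CV testes and 0.0582 ± 0.0848 CPM in CV ovaries, was higher in testis on few counts, 67 and 4.

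Other histone genes and partners of histones were counted against the same shares of all genes called, 0.177% in the ovary and 8.08% in the testis. An unadjusted edgeR p under 0.05 was found for 1172 of 18095 genes in the ovary and 3939 of 20269 in the testis. DESeq2 called 95 and 1247 of these genes. Of the 13 genes of the Hist2, Hist3 and Hist4 clusters, 0 of 11 tested were called in the ovary by edgeR (1 at an unadjusted p under 0.05, 0 by DESeq2), and 1 of 13, Hist2h2be, rose in the testis (log2 0.19, SE 0.056, adjusted p = 0.0221). The 11 replacement histone genes, which are used outside S phase, had 0 calls in either tissue (1 at an unadjusted p under 0.05 in each, 0 by DESeq2). So did the 19 genes that process histone mRNA, such as Slbp and Lsm11 (1 and 5 at an unadjusted p under 0.05, 0 by DESeq2). Of 11 chaperones and importers of histones, 0 were called in the ovary (1 and 0 by the same measures) and 2 rose in the testis, Nap1l1 (log2 0.24, adjusted p = 2.39e-05) and Rbbp4 (0.14, adjusted p = 0.000749). The germ cell histones left out of the members, with H1foo, H1fnt and Hils1, had 0 calls in either tissue (0 at an unadjusted p under 0.05, 0 by DESeq2).

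Sums of DNA replication genes were set beside the histone sums. Of 30 S phase genes, 0 were called in the ovary (7 at an unadjusted p under 0.05, 0 by DESeq2), 27 were positive and the median log2 change was 0.17. Over all 18095 genes there, 1172 had an unadjusted p under 0.05 and the median log2 change was 0.0060. The S phase sum was 983, 916, 1002 and 1032 CPM for CV and 1217, 980.4, 911, 1197 and 1237 CPM for GF ovaries, so GF 1, 4 and 5 were again the highest. Granulosa markers summed to 839, 1201, 1247 and 1461 CPM in CV, against 882, 816, 1377, 1668 and 812 in GF ovaries, an order unlike that of the histone sum. In the testis 2 of 30 S phase genes rose, against 3.67% of all genes, Mcm6 (log2 0.48, adjusted p = 9.89e-08) and Mki67 (0.11, adjusted p = 0.0441), and the sum was 1677 to 1729.5 CPM in the CV group and 1724 to 1732 CPM in GF. The spermatogonial marker Uchl1 and the spermatocyte marker Spo11 rose there, and the spermatid marker Acrv1 and the leukocyte marker Lyz2 fell, with 1 called among 6, 4, 5 and 4 genes tested in these lists. Summed, spermatogonial markers were at 117 to 123 CPM for CV and 125 to 133 CPM for GF testes, spermatid markers at 15881 to 17018 and 15176 to 16359 CPM, and leukocyte markers at 38.3 to 39.9 and 33.1 to 36.5 CPM. Spermatocyte markers summed to 708 to 753 CPM for CV and 694 to 734 CPM for GF testes, which overlapped. Of the 4 spermatocyte markers, 2 had a positive log2 change. Their part in the histone results was not tested.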

How the data were processed

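Total RNA of 16 gonad libraries was sequenced; per the labels' protocols, libraries were made from 250 ng of RNA with a stranded kit after ribosomal depletion and 12 PCR cycles, and read as pairs of 100 nt. The authors deposited unnormalised whole-number gene counts. The submitters' processing notes name STAR 2.4.0i and mm10. How reads were counted, with or without strand and for reads matching several copies, is not given in the sources used here. All columns matched a sample by name.

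Counts were tested with edgeR 4.0.16 (R 4.3.3; TMM, filterByExpr, robust quasi-likelihood F test), one fit per tissue for GF against CV and one fit of all 16 libraries for tissue contrasts and the interaction, with Benjamini-Hochberg adjustment over all genes tested. Checks of the same steps were made on simulated data. DESeq2 1.42.0, other scalings, no filter, a replicate block and leaving out each library were the alternatives. Standard errors are the log2 change divided by the square root of F. Family sums had no test. Members were matched to GENCODE M21 (GRCm38), 46 by identifier and 7 by symbol, and to RefSeq promoters. Named members were those called for GF against CV or the interaction and the 2 with the highest mean per family and tissue; others named were chosen after their values were seen. The members and lists were chosen with earlier results of these data known.

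Within groups, replicate pairs differed by 2.37 to 34.3 chi-square per degree of freedom, so no pair agreed within sampling noise. Ovary libraries share numbers across CV and GF. Deviations of same-numbered libraries correlated at 0.367, 0.246, 0.200 and 0.360, each above 0.1, and the blocked fit took the numbers to pair the ovaries. CV ovaries 1 and 4 correlated most with the GF ovary of their own number, while CV ovaries 2 and 3 did not. No label explains the numbers, so this pairing is an assumption. GF ovary 5 has no partner and is not in the blocked fit.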

Additional observations from a re-analysis of the deposited data

Results flagged for a closer look

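Single libraries stood apart from the rest of their group in 5 of 120 groups of values, and chance gives about 1 in 20. Hist1h2ag was at 4.39 CPM in CV ovary 2, with the nearest CV ovary at 5.57 CPM. Hist1h2ai was at 14.0 CPM in CV ovary 3, against 11.8 CPM in the nearest. CV ovary 4 had the high value of Hist1h2bm, 20.9 CPM, against 17.7 CPM in the nearest. For Hist1h2bp the low value was 54.4 CPM in CV testis 4, the nearest being 57.2 CPM. Hist1h4d was at 25.8 CPM in CV testis 1, with the nearest at 28.1 CPM.

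The response to germ-free status differed between the tissues for 2 members by the interaction test of edgeR. Hist1h2ae had a log2 change in the testis that exceeded that in the ovary by 2.69 (adjusted p = 0.0034), with every GF library above every CV library in both tissues. The CV testes together held only 25 counts of Hist1h2ae. For Hist1h2bp the testis change less the ovary change was -2.15 (adjusted p = 0.000162), with all 5 GF ovaries above all 4 CV ovaries and overlapping testes.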

How the results depend on the processing

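Ovary members called numbered 16 with DESeq2, 13 with the replicate block and 13 in the joint fit of 16 libraries, against 7; 6 with partnered libraries and no block (added after seeing the data), and 6 to 7 when each library was left out. Over all genes these fits called 95, 91 and 93, against 32. Testis members called fell to 11 in the joint fit (122 genes in all, against 1638). They numbered 20 with DESeq2 (1247 genes in all), 20 with the replicate block and 22 for the libraries of that block without it. With a library left out they ran from 19 to 24. Testis numbers did not pair the libraries (correlations of -0.0427, 0.0142 and -0.0252; no library was closest to its own number). Of the called members, 6 of 7 in the ovary and 11 of 24 in the testis were called in every setting that gave an adjusted p. In the testis DESeq2 gave none for Hist1h2ao, which is among these 11, or for Hist1h2ad, and so called neither. The 13 testis calls lost in some setting were all lost in the joint fit, and 6 of them there alone, with an adjusted p of 0.14 for Hist1h2an, 0.0559 for Hist1h2bl, 0.104 for Hist1h3a, 0.332 for Hist1h4a, 0.256 for Hist1h4f and 0.143 for Hist1h4k; the cause was not tested. Hist1h1c was gained in the testis without GF 1 (0.0154). The interaction had 4 members with DESeq2 and 2 whichever library was left out (127 genes in all with DESeq2, against 29).

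With a library left out, 41 to 44 members were called between tissues of CV mice, and 40 to 43 between those of GF mice. The CV tissue ratios of family sums moved with scaling, which sets them by construction. With raw totals they were -1.56 for H1, -1.89 for H2A, -1.40 for H2B, -2.93 for H3, -0.95 for H4 and -1.46 for all members; with DESeq2 size factors they were -0.61, -0.94, -0.45, -1.98, -0.0055 and -0.51. With a library left out these ratios ran from -0.82 to -0.69, -1.12 to -1.04, -0.64 to -0.53, -2.17 to -2.07, -0.18 to -0.11 and -0.70 to -0.60. GF over CV ratios ran from 0.04 to 0.18, 0.15 to 0.33, -0.08 to 0.06, 0.06 to 0.21, 0.04 to 0.17 and 0.03 to 0.17 in the ovary, and from -0.08 to 0.07, 0.07 to 0.16, -0.26 to -0.17, -0.17 to -0.12, -0.15 to -0.10 and -0.14 to -0.05 in the testis. Depth limits Hist1h2ao, Hist1h2ap, Hist1h2bq and Hist1h2br, which had few counts in CV libraries.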
